A study of Mus musculus and Homo sapiens with 18 samples.

Results

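The 9 genes described here are the nuclear receptors *Ppara*, *Ppard*, *Pparg*, *Rxra* and *Rxrb* and 4 textbook targets of the PPARs, *Cpt1a*, *Pdk4*, *Angptl4* and *Plin2*. They were looked up by symbol in the RNA-seq count tables of 3 lens systems, with upper-case symbols in the human one. The genes were chosen with earlier results of these data known. All 9 had a row and at least 1 read in each table, out of 46882 genes in the lens table, 54838 in the table of NSC-derived lens progenitor-like cells (NLPCs) and 60880 in that of the human lens epithelial line HLE-B3. After the filter on low counts, 6 of the 9 could be tested in the lens and all 9 in NLPCs and in HLE-B3 cells, so counts of members below refer to those tested.

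Each system had 3 control and 3 deletion libraries. The lens groups were *Nestin-CreERT2; QkL/+* (Ctrl), which carry 1 floxed *Qk* allele and the same Cre, and *Nestin-CreERT2; QkL/L* (*Qk*-iCKO); both were C57BL/6 mice of either sex given tamoxifen at P7 and P8, with lenses taken at P17 to P19. The Nestin promoter drives the tamoxifen-dependent Cre, and the loxP sites flank exon 2 of *Qk*. NLPCs were derived from neural stem cells of *Nestin-CreERT2; QkL/L* newborn brains, differentiated with Noggin and then with bFGF, BMP4 and BMP7, with 4-hydroxytamoxifen used to delete *Qk* in the cells labelled *Qk*-/-. The HLE-B3 line, grown in 20% fetal bovine serum, was compared as WT and after CRISPR-Cas9 targeting of *QKI* by lentivirus and puromycin selection (*QKI* KO).

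*QKI* counts in HLE-B3 were 263, 262 and 257 CPM (read counts scaled to library size) in WT and 100.2, 105 and 103 in *QKI* KO, a log2 fold change of −1.34 (SE 0.05; edgeR adjusted p = 1.85e-11). In the lens, *Qk* stood at 116 to 127 CPM in Ctrl and at 86.9 to 106 in *Qk*-iCKO, with groups that did not overlap (log2 fold change −0.31, SE 0.14; edgeR adjusted p = 0.200). In NLPCs it went against the label, with 2444 to 2675 CPM in WT and 3088 to 3599 in the libraries labelled *Qk*-/- (log2 fold change 0.41, SE 0.09; edgeR adjusted p = 0.0270); a count over the whole gene also holds reads outside the deleted exon, and the reads on exon 2 alone were not analysed here. The direction of every NLPC change below therefore rests on the library labels. The lens libraries held 10319320 to 16425331 counts, those of NLPCs 28154202 to 68243360 and those of HLE-B3 69190864 to 81384471. *Qk*-iCKO lens 1 stood apart, with a TMM factor of 1.48 against 0.888 to 0.962 in the other lenses. The lens marker sum was 234339 to 256424 CPM in Ctrl lenses and lower in every *Qk*-iCKO lens, at 127843, 213683 and 203539 CPM. Of 10 lens markers tested 1 was called, *Mip*, which was lower in *Qk*-iCKO (log2 fold change −1.69, edgeR adjusted p = 0.0259). The part of this shift in the lens results was not tested. Lens identity was clear in the lens libraries (10 of 11 lens markers tested, up to 256424 CPM in sum). The marker not tested, *Lim2*, lay at 0.0713 CPM or less there. In NLPCs *Cryaa* lay at 0.61 CPM or less and *Pax6* at 80.2 to 88.0 CPM. *Cryab* stood at 61.3 to 70.1 CPM in WT and at 11.7 to 29.6 in the libraries labelled *Qk*-/-. Its log2 fold change was −1.45 (edgeR adjusted p = 0.0232). HLE-B3 cells had no *CRYAA* read but 479 to 1015 CPM of *CRYAB* and 127 to 155 of *PAX6*. Their lens marker sum was 625 to 733 CPM in WT and 1005 to 1157 in *QKI* KO, with 1 of 5 tested markers higher and 1 lower. The count of 4 Y-linked genes was 0 to 3 in the 3 Ctrl lenses and in *Qk*-iCKO lens 1 but 1051 and 930 in *Qk*-iCKO lenses 2 and 3, so sex differed in part with the group; its part in the lens results was not tested.

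PPARα, PPARδ (also called PPARβ) and PPARγ are nuclear receptors that are activated by fatty acids and their derivatives, bind DNA as heterodimers with an RXR and raise the transcription of genes of lipid handling. PPARα and PPARδ are best known for driving fatty acid oxidation, and PPARγ for fat cell differentiation and lipid storage. The RXRs are shared partners: besides the PPARs they pair with the retinoic acid, vitamin D, thyroid hormone and liver X receptors. The 4 targets cover separate steps, since CPT1A loads fatty acids for entry into mitochondria, PDK4 shuts off pyruvate dehydrogenase, ANGPTL4 is a secreted inhibitor of lipoprotein lipase and PLIN2 coats lipid droplets. The laboratory that made these data had described Qki-5, the nuclear isoform of Qki, as a coactivator of the PPARβ-RXRα complex, which is the question that a deletion of *Qk* puts to these genes.

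The DNA element that PPAR-RXR dimers recognise is a direct repeat of the hexamer AGGTCA with 1 base between the copies (DR1). Windows from 250 bases before to 50 after the start site were searched on both strands for this exact repeat, for the hexamer alone, which every DR1 also holds, and for ACTAAC, the letters that QKI binds in RNA. No window of a member held a DR1, which occurs in 0.0396% of 32817 mouse and 0.0371% of 18881 human windows. The hexamer was found in 5 of 12 mouse windows (4 of the 8 members with an entry; *Angptl4* had none), against 16.3% of all mouse windows, and in 1 of 9 human windows, against 11% of all. ACTAAC occurred in 1 mouse window, the second start of *Rxra*, against 6.09% of mouse and 3.91% of human windows. There it lay as the reverse complement on the strand of the gene, 206 bases before the start and in no annotated exon. Matches of *Pparg* and *Cpt1a* are shown because these members moved in NLPCs, and 1 of *Rxra* as that of their partner; each run is read 5′ to 3′ on the strand of the gene, and capitals mark the hexamer or its reverse complement. Mouse sequences are those of RefSeq on GRCm38.p6 and human sequence is GRCh37 at the start of the MANE Select transcript. The 3 *Pparg* and *PPARG* matches lie in annotated exons, and those of *Cpt1a* and *Rxra* in no annotated exon.
Human *PPARG*, chr3:12330533-12330562, + strand, match 24 bases before the start: ggcttttatataAGGTCAgtggtaggtaag
Mouse *Pparg*, chr6:115361104-115361133, + strand, match 28 bases before the start: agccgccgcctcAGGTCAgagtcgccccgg
Mouse *Pparg*, chr6:115362328-115362357, + strand, match 9 bases before the start: agggacgcgaggAGGTCAagaaggggcctg
Mouse *Cpt1a*, chr19:3323195-3323224, + strand, match 94 bases before the start: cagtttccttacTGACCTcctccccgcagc
Mouse *Rxra*, chr2:27709232-27709261, + strand, match 48 bases before the start: gggtggcaggaaAGGTCAgtcactctctgt
A match is a run of letters and says nothing of binding.

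The receptors and targets differed widely in level between the 3 systems, with levels compared between genes as CPM per kilobase of merged exons (RPKM, mean ± SD, n = 3 control libraries). In Ctrl lenses *Cpt1a* led with 19.0 ± 2.47 RPKM, followed by *Rxrb* (4.06 ± 0.21), *Rxra* (3.54 ± 0.05) and *Plin2* (3.48 ± 0.717), of which *Plin2* did not differ beyond its spread from either RXR gene. *Angptl4* lay at 0.657 ± 0.145 RPKM, and the 3 PPARs were the lowest of the receptors: *Ppard* at 0.246 ± 0.056, *Ppara* at 0.104 ± 0.066 and *Pparg* with 1 read in all 3 Ctrl lenses together. *Pdk4* had no read in any Ctrl lens, which allows up to 0.249, 0.214 and 0.206 CPM (3 counts per library, counting error only).

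In WT NLPCs *Plin2* led at 25.0 ± 1.93 RPKM, ahead of *Cpt1a* (16.2 ± 0.626), *Rxra* (8.89 ± 0.658) and *Rxrb* (5.96 ± 0.307). *Ppard*, at 2.01 ± 0.246 RPKM, stood above *Ppara* (0.908 ± 0.115). *Angptl4* (0.122 ± 0.0082), *Pparg* (0.0647 ± 0.048) and *Pdk4* (0.0526 ± 0.077) closed the order and overlapped one another. In WT HLE-B3 cells the order was another one, with *ANGPTL4* at 45.2 ± 2.9 RPKM and *PPARD* (6.91 ± 0.477) and *RXRB* (6.04 ± 0.613) overlapping behind it. *PLIN2* stood at 3.43 ± 0.187, *CPT1A* at 0.883 ± 0.091, and *PPARG* (0.571 ± 0.099), *PPARA* (0.527 ± 0.103) and *RXRA* (0.482 ± 0.017) did not differ beyond their spread. *PDK4* was lowest at 0.0538 ± 0.0069. Levels in separate tables were set side by side without a test, and a gene's RPKM depends on the length chosen: over the longest principal transcript, WT *RXRA* and *PPARG* came to 1.05 and 1.68 RPKM.

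**Figure D1:**
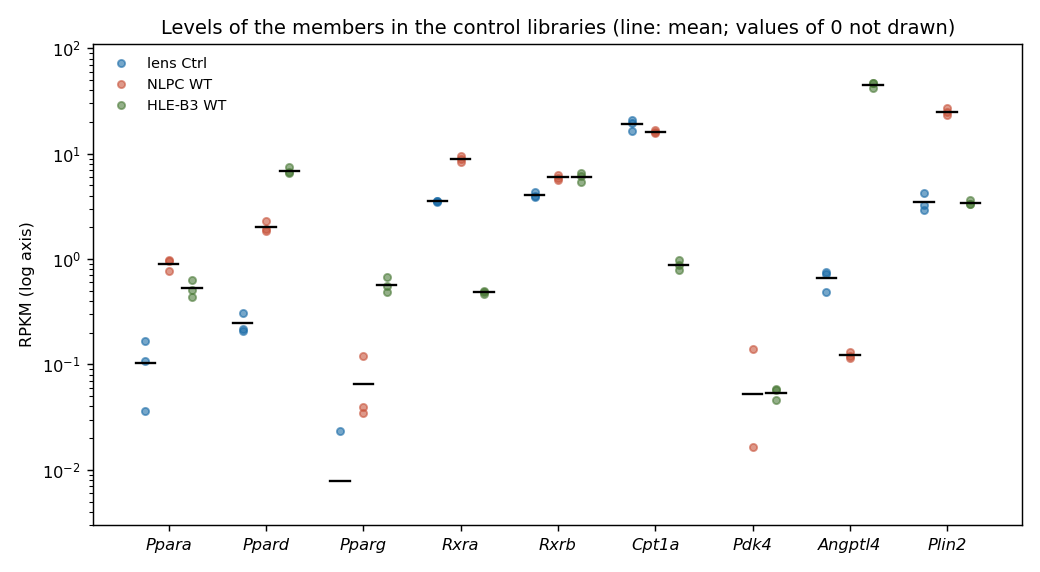
Levels of the 9 members in the control libraries of each system, in RPKM on a log axis; each point is 1 library, the line is the mean of 3, and values of 0 (2 libraries for *Pparg* and 3 for *Pdk4* in the lens, 1 for *Pdk4* in NLPCs) are not drawn. *Cpt1a* is among the highest members in lens and NLPC but lies under 1 RPKM in HLE-B3, where *ANGPTL4* is the highest.

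In the lens none of the 6 members tested passed an adjusted p of 0.05 between Ctrl and *Qk*-iCKO, where 12.3% of all 12201 genes tested did (edgeR's quasi-likelihood test with Benjamini-Hochberg adjustment). At an unadjusted p of 0.05, 2 of the 6 passed, *Ppard* and *Plin2*, against 28.7% of all genes, and DESeq2 called none of the 6. The groups of 1 member, *Ppard*, did not overlap, against 35.3% of all genes. The median log2 fold change of the 6 was 0.30, beside 0.01 over all genes tested.

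*Ppard*, the most widely expressed PPAR in the body, had 1.57, 1.64 and 2.33 CPM in Ctrl lenses and 4.60, 3.001 and 3.63 CPM in *Qk*-iCKO lenses. Each *Qk*-iCKO lens thus stood above each Ctrl lens, and the log2 fold change was 1.02 (SE 0.29; edgeR adjusted p = 0.0618), on 76 and 142 reads in all. Without *Qk*-iCKO lens 1, the log2 fold change was 0.84 (adjusted p = 0.147). Among genes with at least 10 counts in every library the adjusted p was 0.0459. In bulk tissue, more cells of a type that expresses a gene and more of its RNA per cell cannot be told apart. *Ppara*, with 2 to 9 reads per Ctrl lens and 1 to 15 per *Qk*-iCKO lens, and *Pparg*, with 1 read and 6 reads per group, were too low to test.

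*Plin2*, the lipid droplet coat protein, was read at 10.2, 11.4 and 15.03 CPM in Ctrl lenses and at 21.2, 14.8 and 28.3 CPM in *Qk*-iCKO lenses. *Qk*-iCKO lenses 1 and 3 lay above every Ctrl lens while lens 2 lay within the Ctrl range. The log2 fold change of 0.81 (SE 0.26) had an edgeR adjusted p of 0.0897, and of 0.0263 with the replicate number as a block; it passed also without *Qk*-iCKO lens 2 (1.01, adjusted p = 0.0407). *Angptl4* showed 1.74, 2.57 and 2.68 CPM in Ctrl and 2.58, 2.52 and 4.54 CPM in *Qk*-iCKO lenses, of which only lens 3 stood above the Ctrl range (log2 fold change 0.45, SE 0.33; edgeR adjusted p = 0.424). *Pdk4*, at 0 reads in the 3 Ctrl lenses, had 22, 3 and 1 reads in the *Qk*-iCKO lenses, or 1.35, 0.290 and 0.101 CPM, so that most of its reads came from lens 1. It was called only where genes with few reads were let in (edgeR adjusted p = 0.00600 with every gene of at least 1 count, DESeq2 adjusted p = 0.0306).

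The *Cpt1a* level was high in every lens, with 151, 124 and 161 CPM in Ctrl and 130, 173 and 183 CPM in *Qk*-iCKO, and overlapping groups (log2 fold change 0.16, SE 0.19; edgeR adjusted p = 0.632). *Rxra* gave the closest values of all members, 19.1, 19.6 and 19.3 CPM in Ctrl and 19.0, 19.1 and 18.2 in *Qk*-iCKO (log2 fold change −0.04, SE 0.12; edgeR adjusted p = 0.854). *Rxrb* lay at 15.5 to 17.1 CPM in Ctrl and at 13.3 to 16.4 in *Qk*-iCKO (log2 fold change −0.09, SE 0.14; edgeR adjusted p = 0.738). The sign of *Rxra* and *Rxrb* turned with total counts in place of TMM, which moved the median of all genes by 0.29 on the log2 scale.

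The third RXR gene, *Rxrg*, is no member but pairs with the same receptors, and it fell. It stood at 17.6, 15.4 and 14.1 CPM in Ctrl and at 3.31, 2.13 and 3.23 CPM in *Qk*-iCKO lenses (log2 fold change −2.43, SE 0.21; edgeR adjusted p = 0.000796), and passed in each of the 6 fits with 1 lens left out. Per length, its level was 6.84 ± 0.755 RPKM in Ctrl lenses, above *Rxrb* and *Rxra*, and 1.26 ± 0.288 in *Qk*-iCKO lenses, below both. *Rxrg* is also expressed in cone photoreceptors. The summed photoreceptor markers were 71.9, 527 and 1.92 CPM in Ctrl and 77.5, 32.7 and 12.8 CPM in *Qk*-iCKO lenses, and 0 of the 5 were called. In Ctrl lens 3, with the lowest of these sums, *Rxrg* stood at 14.1 CPM.

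Cells other than lens cells moved with the group. The 8 myeloid markers summed to 1.91, 2.14 and 4.05 CPM in Ctrl and to 93.8, 109.8 and 128 CPM in *Qk*-iCKO lenses, and all 7 that could be tested were higher, among them *Csf1r*, *C1qa* and *Adgre1*. Of 5 endothelial markers 2 of 4 tested were higher, with sums of 3.65 to 7.14 and 11.5 to 22.5 CPM. Fat cell markers were near 0 in both groups (0.194 CPM at most in sum, with *Plin1* and *Cidec* at 0). The 5 markers of pigment cells of iris and ciliary body summed to 6.13, 6.92 and 3.50 CPM in Ctrl and to 137, 21.8 and 6.87 CPM in *Qk*-iCKO lenses, with 0 of 3 tested called, and were highest in lens 1, which also held 22 of the 26 *Pdk4* reads and the highest *Plin4* and *Ucp2*. The part of these cells in the values of *Ppard*, *Plin2*, *Pdk4* and the uptake genes below was not tested.

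**Figure D2:**
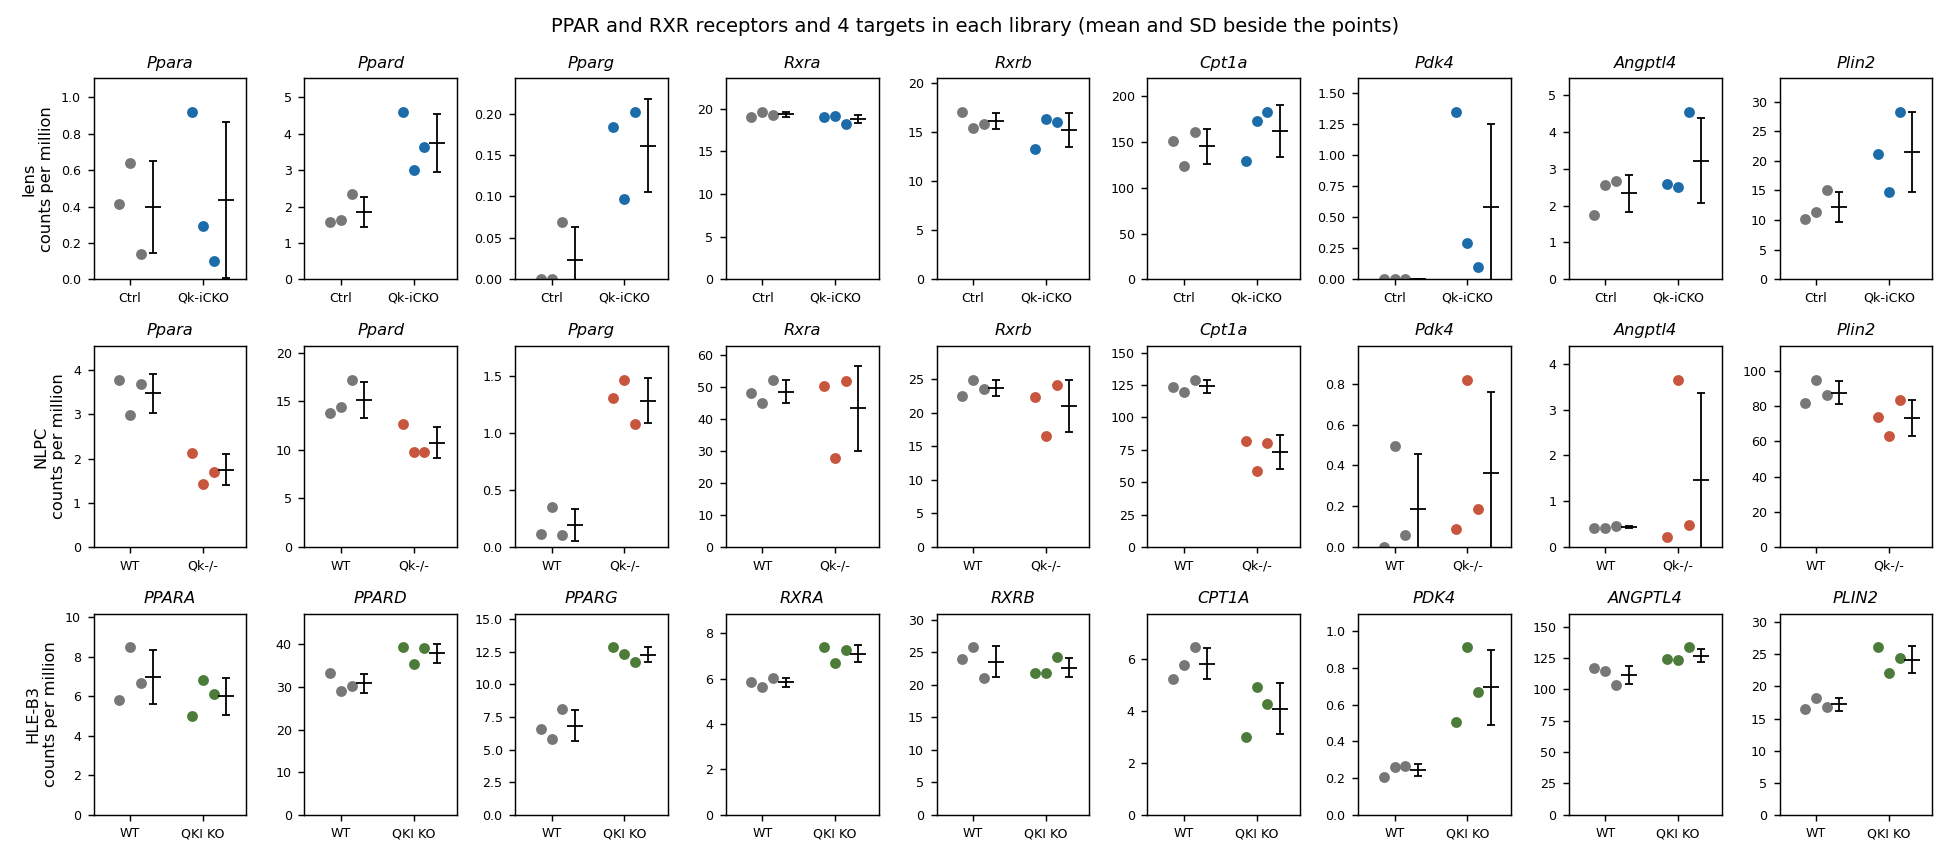
CPM of the 9 members in each of the 18 libraries, with the lens in the top row, NLPCs in the middle and HLE-B3 below; points are libraries, the bar beside them is the mean ± SD of 3, and each vertical axis starts at 0 and has its own scale. Groups stand apart for *Ppard* in the lens, for the 3 PPARs and *Cpt1a* in NLPCs and for 7 members in HLE-B3.

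In NLPCs 2 of the 9 members passed, *Pparg* higher and *Cpt1a* lower in the libraries labelled *Qk*-/-, where 10.7% of 20371 genes did. At an unadjusted p of 0.05, 4 of the 9 passed, against 26.4% of all genes. The groups of those 4, the 3 PPARs and *Cpt1a*, did not overlap, against 35.2% of all genes. The median log2 fold change of the 9 was −0.17, beside 0.04 over all genes.

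*Cpt1a*, whose product sets the pace of fatty acid entry into mitochondria, was read at 123, 119.7 and 129 CPM in WT and at 82.0, 58.6 and 80.3 CPM in the libraries labelled *Qk*-/-. All of the latter lay below the WT range, by a log2 fold change of −0.75 (SE 0.13; edgeR adjusted p = 0.0114, DESeq2 adjusted p = 8.96e-06). The call was lost without WT library 1 (adjusted p = 0.0732), 2 (0.0522) or 3 (0.0906), with log2 fold changes of −0.79 to −0.73. The neighbouring genes did not share the change: the 50 nearest tested genes had a median log2 fold change of −0.01.

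*Pparg*, the PPAR of fat storage, was scarce in these cells. It had 8, 15 and 7 reads in WT and 73, 43 and 64 in the libraries labelled *Qk*-/-, or 0.117, 0.354 and 0.102 CPM and 1.31, 1.47 and 1.08 CPM. The log2 fold change was 2.76 (SE 0.71, edgeR adjusted p = 0.0444), and per length the mean level went from 0.0647 to 0.436 RPKM. In the libraries labelled *Qk*-/-, *Pparg* (0.436 ± 0.066) lay below *Ppard* (1.43 ± 0.219) and overlapped *Ppara* (0.457 ± 0.090). Over the longest principal transcript *Pparg* stood at 0.728 ± 0.111 RPKM and *Ppara* at 0.513 ± 0.101 in these libraries. The call was lost in 4 of the 6 fits with 1 library left out, without WT library 1 (adjusted p = 0.174) or 3 (0.203) or library 1 (0.147) or 3 (0.0909) labelled *Qk*-/-, at log2 fold changes of 2.44 to 2.85. Fat cell markers summed to 0.556 to 0.851 CPM in WT and to 0.682, 5.43 and 0.523 CPM in the libraries labelled *Qk*-/-, with 0 of 1 tested called; their part in the *Pparg* values was not tested.

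*Ppara*, the PPAR of fasting and fat burning, had 3.79, 2.98 and 3.68 CPM in WT and 2.12, 1.43 and 1.70 CPM in the libraries labelled *Qk*-/-. The groups did not overlap, with a log2 fold change of −0.99 (SE 0.28) that missed the threshold in edgeR (adjusted p = 0.0661) and passed it in DESeq2 (adjusted p = 0.0375) and in edgeR without library 2 labelled *Qk*-/- (−0.86, adjusted p = 0.0412). *Ppard* was read at 13.8, 14.4 and 17.2 CPM in WT and at 12.7, 9.81 and 9.83 CPM in the libraries labelled *Qk*-/-, again without overlap (log2 fold change −0.49, SE 0.16; edgeR adjusted p = 0.0917).

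The RXR genes overlapped. *Rxra* lay at 48.2, 45.2 and 52.3 CPM in WT and at 50.3, 27.9 and 51.8 in the libraries labelled *Qk*-/-, so library 2 alone was low (log2 fold change −0.16, SE 0.22; edgeR adjusted p = 0.675), and *Rxrb*, at 22.5 to 24.9 and 16.6 to 24.1 CPM, showed the same library lowest (−0.17, SE 0.15; adjusted p = 0.530). *Plin2* stood at 81.7 to 95.1 CPM in WT and at 63.1 to 83.5 in the libraries labelled *Qk*-/- (−0.25, SE 0.12; edgeR adjusted p = 0.223). *Angptl4* was read at 0.409, 0.425 and 0.466 CPM in WT and at 0.215, 3.66 and 0.489 CPM in the libraries labelled *Qk*-/-, and *Pdk4* at 0 to 0.496 and 0.0897 to 0.820 CPM. Their log2 fold changes of 1.72 (SE 0.99; edgeR adjusted p = 0.308) and 0.99 (SE 1.56; adjusted p = 0.725) rested on library 2 and turned to −0.29 and −0.37 without it. That library was also the shallowest, with 28154202 counts, and its summed skeletal muscle markers were 11.5 CPM, against 1.77 to 2.71 in the other NLPC libraries. Its endothelial (8.37 against 1.56 to 3.19 CPM) and photoreceptor (6.05 against 1.41 to 2.58 CPM) sums were also the highest. So were its fat cell (5.43 against 0.523 to 0.851 CPM) and myeloid (16.5 against 8.38 to 11.4 CPM) sums. Its lens, neural stem cell and oligodendrocyte lineage sums were the lowest.

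In HLE-B3 cells 6 of the 9 members passed, 5 higher and 1 lower in *QKI* KO, where 33.3% of 19049 genes did. At an unadjusted p of 0.05, 7 of 9 passed, against 41.3% of all genes, and the groups of 7 did not overlap, against 44.6%. The median log2 fold change was 0.29, beside −0.02 over all genes. *PPARG*, *PLIN2* and *PPARD* passed in every one of the 6 fits with 1 library left out, while *ANGPTL4*, *PDK4* and *CPT1A* did not.

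*PPARG* rose from 6.61, 5.78 and 8.12 CPM in WT to 12.8, 12.3 and 11.7 CPM in *QKI* KO, a log2 fold change of 0.84 (SE 0.13; edgeR adjusted p = 0.000103) with wide space between the groups. *PPARD*, by far the highest PPAR in this line, rose from 33.2, 29.1 and 30.2 to 39.3, 35.4 and 39.1 CPM (log2 fold change 0.30, SE 0.08; edgeR adjusted p = 0.00649). *PPARA* overlapped, with 5.79, 8.46 and 6.66 CPM in WT and 5.01, 6.83 and 6.10 CPM in *QKI* KO (−0.22, SE 0.17; adjusted p = 0.359).

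*RXRA* was read at 5.84, 5.62 and 6.02 CPM in WT and at 7.37, 6.68 and 7.26 CPM in *QKI* KO, without overlap but short of the threshold (log2 fold change 0.29, SE 0.13; edgeR adjusted p = 0.119). *RXRB*, the main RXR of the line at 21.0 to 25.7 CPM in WT and 21.8 to 24.3 in *QKI* KO, gave −0.06 (SE 0.09; adjusted p = 0.698). *RXRG* had 6 reads in 1 WT library and none in the other 5, each of which allows up to 0.0434 CPM at most.

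Of the targets, *PLIN2* rose from 16.5, 18.3 and 16.8 to 26.1, 22.0 and 24.5 CPM (log2 fold change 0.49, SE 0.09; edgeR adjusted p = 0.000432). *ANGPTL4*, the most abundant member here, had 117, 115 and 104 CPM in WT and 124, 124 and 133 in *QKI* KO, a small rise of 0.18 (SE 0.06; edgeR adjusted p = 0.0340). Scaled to total counts it was 0.13 (adjusted p = 0.126), and it was not called without WT library 3 (0.143) or *QKI* KO library 1 (0.0663) or 3 (0.154). *PDK4* had 17, 19 and 19 reads in WT and 37, 63 and 49 in *QKI* KO, or 0.208, 0.260 and 0.265 CPM and 0.505, 0.912 and 0.669 CPM. Its log2 fold change of 1.50 (SE 0.53; edgeR adjusted p = 0.0368) was called with *QKI* KO library 1 left out and in none of the other 5 such fits (adjusted p up to 0.163).

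*CPT1A* alone fell, from 5.23, 5.76 and 6.42 CPM in WT to 3.002, 4.92 and 4.27 CPM in *QKI* KO (log2 fold change −0.51, SE 0.19; edgeR adjusted p = 0.0427, DESeq2 adjusted p = 0.0560). It was called without *QKI* KO library 2 (−0.67, adjusted p = 0.0165) and in none of the other 5 fits with 1 library left out, where it lay between −0.57 and −0.33. The medians of the 50 genes nearest to the 6 called members lay between −0.15 and 0.22, the highest around *PLIN2*. Myeloid, endothelial and fat cell markers stayed under 4 CPM in sum in every HLE-B3 library. Other marker sums moved with the group. Neural stem cell and astrocyte markers summed to 121 to 132 CPM in WT and 57.8 to 61.8 in *QKI* KO (2 of 3 tested lower). Neuron markers summed to 22.5 to 25.1 and 12.1 to 15.3 CPM (2 of 2 tested lower). The part of these shifts in the member values was not tested.

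**Figure D3:**
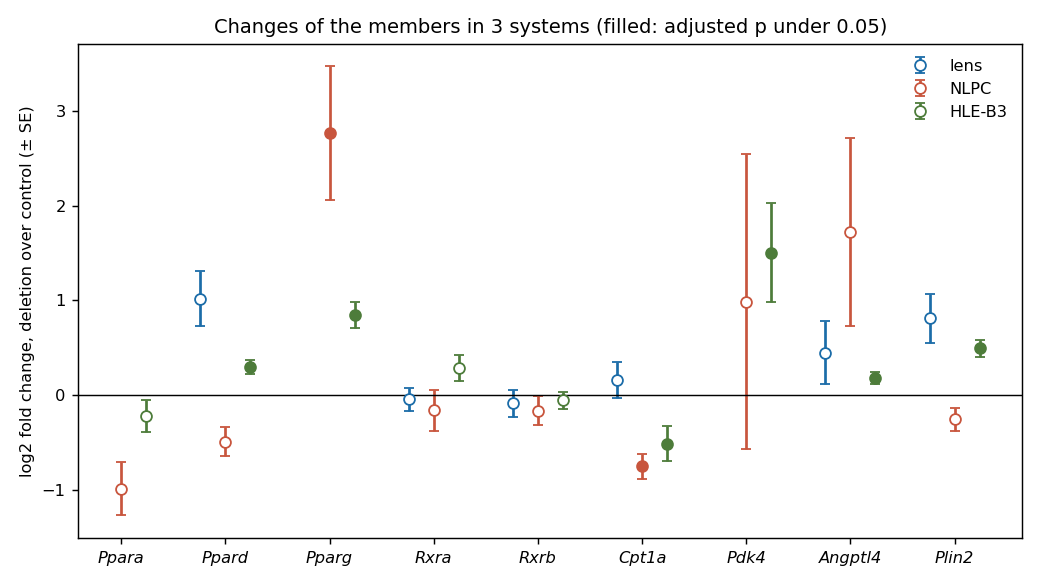
Log2 fold changes of the members in each system, deletion over control, with the SE of the edgeR fit; filled circles have an adjusted p under 0.05, and members too low to test in the lens have no lens circle. *Cpt1a* lies below 0 in NLPCs and HLE-B3 and *Pparg* above 0 in both, while *Ppard* lies on opposite sides in the lens and NLPCs.

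Whether a change differed between the mouse systems was tested as an interaction in a joint fit of 16675 genes, of which 8.53% passed. For *Ppard* the change was lower in NLPCs than in the lens by 1.42 on the log2 scale (log2 difference −1.42, SE 0.33; edgeR adjusted p = 0.0195), with higher values in 3 of 3 *Qk*-iCKO lenses and lower values in 3 of 3 NLPC libraries labelled *Qk*-/-. It was the only one of the 6 members tested in both systems that passed. The call was lost without Ctrl lens 1 (adjusted p = 0.0603), Ctrl lens 2 (0.0562) or WT NLPC library 3 (0.0616). *Cpt1a* (−0.82, SE 0.23; adjusted p = 0.0504) and *Plin2* (−0.97, SE 0.31; adjusted p = 0.0732) missed the threshold and passed it with the replicate block (adjusted p = 0.0488 and 0.0308), which made 3 of 6. The differences of *Rxra* (−0.03, SE 0.25), *Rxrb* (0.01, SE 0.20) and *Angptl4* (1.37, SE 1.11) had adjusted p-values of 0.988, 1.00 and 0.500 in edgeR. For *Rxrg* the difference was 1.50 (SE 0.35; edgeR adjusted p = 0.0204), from the fall in the lens and a log2 fold change of −0.98 (SE 0.69; adjusted p = 0.403) in NLPCs, where it had only 0.236 to 0.669 CPM. This call was lost with total counts (1.15, adjusted p = 0.200) and without Ctrl lens 1 (1.41, adjusted p = 0.0592) or WT NLPC library 1 (1.40, adjusted p = 0.0524).

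The other genes of the pathway were taken as 9 lists of 103 genes. In the lens 13 of 82 tested passed, 10 higher and 3 lower, or 15.9% beside 12.3% of all genes; with 1 lens left out the number was 5 (without Ctrl lens 1) to 14. With the replicate block it was 16 and with total counts alone 9. The called genes were spread over 7 of the lists, with none among 14 PPAR coregulators and 8 genes of pyruvate dehydrogenase control.

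In the list of uptake and activation of fatty acids, 3 of 9 tested genes were higher in *Qk*-iCKO lenses and none lower, at a list median of 0.89; with 1 lens left out, 1 to 5 passed. Of the RXR partners with *Rxrg*, 1 of 8 rose and 2 fell, and 1 to 4 passed with 1 lens left out. *Acsl5*, which attaches coenzyme A to fatty acids, rose from 2.50 to 2.73 CPM in Ctrl to 10.7 to 14.5 CPM in *Qk*-iCKO (log2 fold change 2.20, SE 0.19; edgeR adjusted p = 0.000796). *Cd36*, a fatty acid receptor that macrophages and endothelium also carry, went from 0.755 to 3.89 CPM to 6.10 to 38.4 CPM (3.06, SE 0.75; adjusted p = 0.0389). Beside *Plin2*, the droplet coat genes *Plin3* (1.14, SE 0.23; adjusted p = 0.0188) and *Plin4* (3.75, SE 0.93; adjusted p = 0.0404) rose, *Plin4* from 0.343 to 1.35 CPM to 23.7, 8.23 and 1.72 CPM. *Plin4* and *Cd36* passed in 1 of 6 fits with 1 lens left out and *Plin3* in 3.

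Of 2 tested targets best known in liver or muscle, 1 was called higher and 1 lower in *Qk*-iCKO lenses. The higher was *Ucp2*, a mitochondrial carrier that is abundant in myeloid cells. *Ucp2* rose from 0.618 to 0.927 CPM to 24.8, 5.23 and 8.78 CPM in *Qk*-iCKO lenses (3.99, SE 0.64, edgeR adjusted p = 0.00855). Only *Cpt1b*, the muscle form of *Cpt1a*, passed of 18 mitochondrial oxidation genes (2.18, SE 0.47; adjusted p = 0.0255), at 0.412 to 0.580 CPM in Ctrl and 1.29 to 3.74 CPM in *Qk*-iCKO. The median of that list was −0.07. The retinoid gene *Dhrs3*, which reduces retinaldehyde, rose from 2.47 to 4.85 CPM to 13.7 to 16.8 CPM (1.93, SE 0.26; adjusted p = 0.00451), and *Rarb*, a partner of the RXRs, fell (−0.67, SE 0.16; adjusted p = 0.0347, and 0.0512 with the replicate block). With 1 lens left out, *Acsl5*, *Ucp2* and *Dhrs3* passed in all 6 fits, *Cpt1b* in 2 and *Rarb* in 1.

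In NLPCs 20 of 89 tested genes passed, 7 higher and 13 lower, or 22.5% beside 10.7% of all genes; with total counts alone the split was 8 higher and 9 lower, and with 1 library left out the number was 5 (without WT library 3) to 29 (without library 2 labelled *Qk*-/-). With *Cpt1a*, 8 of 18 other mitochondrial oxidation genes fell and none rose, at a list median of −0.39. With 1 library left out, the number called in this list was 2 (without WT library 3) to 8: it was 3 without WT library 1 or 2 or library 1 labelled *Qk*-/-. *Decr1*, which acts on unsaturated fatty acids, went from 4.68, 5.13 and 5.36 CPM to 1.45, 1.43 and 1.06 CPM (−1.94, SE 0.26; edgeR adjusted p = 0.00312). *Hadhb*, a subunit of the trifunctional protein, went from 57.2 to 58.8 CPM to 34.9 to 38.7 CPM (−0.66, SE 0.09; adjusted p = 0.00390), and *Etfdh*, which passes electrons from oxidation to ubiquinone, from 165 to 169 CPM to 99.1 to 118 CPM (−0.60, SE 0.09; adjusted p = 0.00559).

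The peroxisomal genes of NLPCs moved both ways, 4 lower and 1 higher of 12, and 2 to 7 passed with 1 library left out. *Hsd17b4*, the peroxisomal multifunctional enzyme, fell from 199, 206 and 203 to 119, 117 and 120.0 CPM (−0.77, SE 0.07; edgeR adjusted p = 0.000777), and *Crot*, a carnitine acyltransferase, rose from 105 to 111 CPM to 163 to 184 CPM (0.66, SE 0.08; adjusted p = 0.00267). In the uptake list 4 of 10 rose and none fell, and 1 to 4 passed with 1 library left out. *Fabp5*, a carrier that delivers fatty acids and retinoic acid to PPARδ, rose from 334 to 374 CPM to 555 to 670.0 CPM (0.77, SE 0.10; adjusted p = 0.00286). *Acsl4* (0.62, SE 0.10; adjusted p = 0.00641) and *Acsl1* (0.86, SE 0.18; adjusted p = 0.0202) rose as well. Of the coregulators *Nrip1*, a corepressor, rose (0.64, SE 0.13; adjusted p = 0.0202), and of the RXR partners *Nr4a2* (1.15, SE 0.27; adjusted p = 0.0344, and 0.0549 with the replicate block). With 1 library left out, *Decr1*, *Hadhb*, *Hsd17b4*, *Crot* and *Fabp5* passed in all 6 fits, *Etfdh* and *Acsl4* in 5, *Nrip1* and *Nr4a2* in 2 and *Acsl1* in 1. Neuron markers summed to 3.74 to 5.86 CPM in WT and 23.3 to 31.0 CPM in the libraries labelled *Qk*-/-. Neural stem cell and astrocyte markers summed to 4907 to 5415 and 3192 to 3656 CPM (3 of 6 lower, 1 higher). Markers of the oligodendrocyte lineage summed to 1100 to 1247 and 612 to 983 CPM (2 of 6 lower, 0 higher). The part of these cells in these changes was not tested.

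In HLE-B3 37 of 85 tested genes passed, 17 higher and 20 lower, or 43.5% beside 33.3% of all genes; with total counts alone the split was 13 and 25. Mitochondrial oxidation did not share the fall of *CPT1A* as a list: 3 of 18 genes fell, 2 rose and the median was −0.04, and 2 to 8 passed with 1 library left out. *ACADVL*, the dehydrogenase of very long chains, went from 281 to 304 CPM to 221 to 237 CPM (−0.34, SE 0.06; edgeR adjusted p = 0.000138). *HADHA*, the partner subunit of *HADHB*, rose (0.21, SE 0.06; adjusted p = 0.00954). Beside *PLIN2*, the lipolysis inhibitors *G0S2*, from 12.7 to 15.5 CPM to 33.8 to 38.4 CPM (1.40, SE 0.09; adjusted p = 7.29e-09), and *HILPDA* (0.87, SE 0.17; adjusted p = 0.000725) were the 2 of 5 other droplet genes that passed, and both rose.

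Genes of retinoid handling and partners of the RXRs moved in HLE-B3 cells, more of them down than up. *STRA6*, the retinol receptor of the cell surface, fell from 44.3, 44.3 and 42.6 to 3.89, 3.82 and 3.59 CPM (−3.54, SE 0.09; edgeR adjusted p = 5.77e-14). *CRABP2*, which hands retinoic acid to its receptors, fell from 18.3 to 19.8 CPM to 7.05 to 8.38 CPM (−1.35, SE 0.11; adjusted p = 6.83e-08); in all, 5 of 9 retinoid genes fell and 2 rose, with a median of −0.49. Of the RXR partners 4 of 10 fell and 1 rose: *VDR*, the vitamin D receptor, fell (−0.69, SE 0.09; adjusted p = 1.04e-05) and *RARA* rose (0.42, SE 0.07; adjusted p = 0.000167). Of the coregulators 5 of 13 fell and 2 rose. *PPARGC1B*, a coactivator of the PPARs, went from 6.34 to 7.02 CPM to 1.77 to 3.32 CPM (−1.31, SE 0.20; adjusted p = 9.39e-05), and *NRIP1* rose (0.44, SE 0.06; adjusted p = 4.22e-05). Beside *PDK4*, 2 of 8 genes of pyruvate dehydrogenase control rose and 1 fell, led by the subunit *DLAT* (0.72, SE 0.06; adjusted p = 1.78e-07), and *UCP2* rose from 1.79 to 2.08 CPM to 7.17 to 7.34 CPM (1.90, SE 0.16; adjusted p = 1.57e-07).

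**Figure D4:**
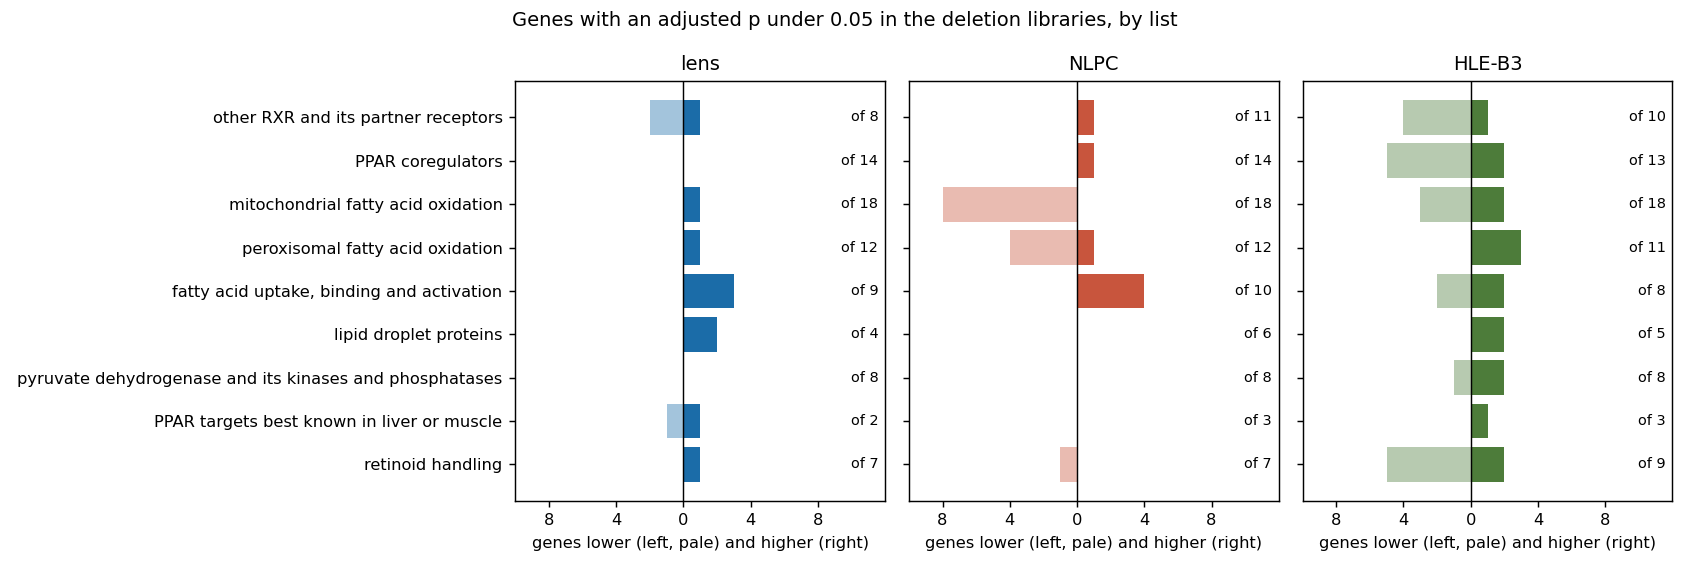
Number of genes with an adjusted p under 0.05 in each of the 9 pathway lists, lower in the deletion libraries to the left and higher to the right, with the number tested at the right edge, in the lens, NLPCs and HLE-B3. Mitochondrial oxidation holds 8 lower genes of 18 in NLPCs, 1 higher in the lens and 3 lower and 2 higher in HLE-B3.

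The genes whose pattern was most like that of a target were sought over the 12 mouse libraries, as the correlation of log2 CPM less the mean of each system among 11217 genes tested in both. For *Cpt1a* these were *Sirt2* (r = 0.981) and *Mras* (0.975), for *Angptl4* *Fam174a* (0.937) and *Trpc6* (0.924), and for *Plin2* *Creb3* (0.971) and *Cdk2ap2* (0.948). The 12 points share 2 systems and their group differences, so these are descriptions of likeness and no test.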

How the data were processed

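RNA-seq was analysed in 18 libraries, 3 per group. The authors prepared stranded libraries, aligned reads with STAR 2.6.1b to mm10 or hg19 and counted them with HTSeq 0.11.0; their processing notes also name HISAT2 2.0.4 and featureCounts with no role, so the counter of the lens table is uncertain. The deposited tables, 1 per system, give whole-number read counts of each gene that had not been normalized. The members and lists were chosen with earlier results of these data known.

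Each table was fitted separately with edgeR 4.0.16 in R 4.3.3: filterByExpr (count 10, total 15), TMM scaling and the quasi-likelihood test without covariates, with Benjamini-Hochberg adjustment over all genes tested. The SE is the log2 fold change over the root of F. CPM use TMM-scaled totals, and RPKM merged exons of GENCODE vM21 (GRCm38) or v44 lifted to GRCh37. Depth limits precision at low counts; exact permutation of 3 against 3 cannot give a p under 0.10. The paper gives the lens RNA as from 3 control and 3 *Qk*-iCKO mice, and at least 3 independent replicates for its animal and cell line studies. The labels do not tie each library to an animal or culture, so p-values measure the spread between libraries.

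Deviations from the group means were correlated between control and deletion libraries. Same-numbered libraries had r = 0.23, 0.13 and 0.52 in the lens, 0.12, 0.32 and 0.15 in NLPCs and 0.061, 0.057 and −0.049 in HLE-B3. Some libraries of unlike number had a higher r than same-numbered ones. It was 0.28 for Ctrl lens 2 with *Qk*-iCKO lens 1, and 0.23 for WT NLPC library 1 with library 3 labelled *Qk*-/-. The labels name no pairs, so the blocked values assume a pairing by number that is not established. The steps were tested on simulated counts. Named genes are the members, *Qk*, *Rxrg*, up to 3 genes of lowest adjusted p per list and system, of which some are left to counts, and the 2 genes most like each target. The alternatives were RLE factors, total counts, lens TMM without crystallins, other filters, DESeq2 1.42.0, the replicate block and each library left out. The values of 1 gene of the lists are not reported here.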

Additional observations from a re-analysis of the deposited data

Results flagged for a closer look

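The change of *Ppard* with the deletion differed between NLPCs and lens by −1.42 on the log2 scale (edgeR interaction, adjusted p = 0.0195), and that of *Rxrg* by 1.50 (adjusted p = 0.0204). Each call was lost under some alternatives, that of *Rxrg* also with total counts (adjusted p = 0.200). *Ppard* also moved in opposite directions in HLE-B3 cells, where every *QKI* KO library lay above every WT library, and in NLPCs, where every library labelled *Qk*-/- lay below every WT library; the changes differ by 0.79 on the log2 scale, in separate tables of different species, and this difference was not tested.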

How the results depend on the processing

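Of 394 refitted log2 fold changes of members, 330 kept their direction and side of the threshold, 29 lost a call, 14 gained one and 21 turned. In the lens the number of members called went from 0 to 2 with every gene of at least 1 count (*Plin2*, *Pdk4*), to 1 with at least 10 counts in every library, to 1 in DESeq2 and to 1 with the replicate block, and was 0 to 1 with 1 lens left out. In NLPCs it went from 2 to 1 with either other filter and was 0 to 3 with 1 library left out; RLE factors, total counts and the replicate block kept 2, and DESeq2 gave 3. In HLE-B3 it went from 6 to 3 without WT library 3 or *QKI* KO library 3 and was 3 to 5 over the libraries left out; the replicate block, where numbers do not pair the libraries, gave 4. The number of members that differed between lens and NLPC went from 1 to 2 with total counts, to 2 with every gene of at least 1 count, to 3 in DESeq2 and to 3 with the replicate block, and was 0 to 2 with 1 library left out. The count of group means of at least 1 RPKM was 27, and 33 over the longest principal transcript, a length chosen after seeing the data. The cause of these changes was not tested, except that filters change the genes tested and left-out libraries the residual spread.

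Signs turned for small or uneven changes. With total counts, lens *Rxra* gave 0.25 and *Rxrb* 0.18, and the NLPC-lens difference of *Rxrb* −0.30; with every gene of at least 1 count that difference was −0.035, and that of *Rxra* was 0.0021 with RLE factors and 0.0013 in DESeq2. With 1 library left out, lens *Rxrb* ranged from −0.15 to 0.0082, HLE-B3 *RXRB* from −0.13 to 0.019, NLPC *Rxra* from −0.32 to 0.077, *Pdk4* from −0.37 to 3.50 and *Angptl4* from −0.29 to 2.23, and the NLPC-lens differences of *Rxra* from −0.15 to 0.19, *Rxrb* from −0.075 to 0.13 and *Angptl4* from −0.67 to 1.91. All 8 called members kept their sign after the median of the 50 or 20 nearest genes was subtracted. The replicate block changed no member call other than those of *Plin2* and *Cpt1a* named above and of *ANGPTL4* (adjusted p = 0.0625) and *PDK4* (adjusted p = 0.0626) in HLE-B3.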
